A study of Mus musculus with 8 samples.

Results

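Retinoic acid is made, carried, sensed and degraded by a small set of proteins, and 9 of their genes were followed in mouse aortic tissue: Rdh10, Aldh1a1, Aldh1a2, Aldh1a3, Crabp1, Crabp2, Cyp26a1, Cyp26b1 and Rarb. They were picked by name, with earlier results of these data known, as 9 of the 24675 genes with 1 symbol on the array. Tissue came from C57Bl/6 mouse embryos at embryonic day 12.5, with no treatment or transgene named, and all embryos share that strain and stage. Ventral aortic tissue, cut from under the dorsal aorta, was measured on 4 arrays, and dorsal aortic tissue, cut between notochord and aortic roof, on 4 arrays, with replicates numbered 1 to 4 in each. Both tissues were laser microdissected from cryosections of the same embryos, and the labels do not say whether a number stands for 1 embryo or a pool. The series concerns the niche under the aorta in which blood stem cells emerge, and the comparison asks how that tissue differs from the tissue above the vessel.

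Retinoic acid is a vitamin A derivative that acts as a signal between neighbouring cells. Retinol is first oxidised to retinal, for which the membrane dehydrogenase Rdh10 is the main embryonic enzyme, and retinal dehydrogenases of the Aldh1a family turn retinal into retinoic acid. Inside the cell Crabp1 and Crabp2 bind the acid, cytochromes of the Cyp26 family degrade it, and nuclear receptors such as Rarb carry its effect to genes. In the mouse trunk Aldh1a2 is the enzyme that supplies the early embryo, and Rarb and Cyp26a1 are well-known direct targets of the receptors.

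Values are log2 RMA intensities, and each difference is ventral minus dorsal on that scale. A gene was tested when it lay above the median of the array on at least 4 of the 8 arrays, and levels near or below the medians (3.59 to 3.65) are in a range where background compresses differences. Of the 9 genes, 8 were tested, and Aldh1a3 was not. The fit was made with limma across 12416 genes with the replicate number as a block. No tested member passed an adjusted p under 0.05 (0 of 8), beside a background of 0% of all genes tested (0 of 12416). At an unadjusted p under 0.05 there were 3 members higher in ventral tissue (Aldh1a1, Rdh10 and Cyp26a1), beside 4.08% of all genes tested in that direction, and 1 lower (Crabp1), beside 4.18%. The members were chosen with earlier results of these data known, so these counts are not an independent comparison with the shares. The 3 higher members also correlated with each other over the 8 arrays (r = 0.83 to 0.96). The tested members had a median difference of 0.52, with 6 above 0 and 2 below. All genes tested had a median of -0.0039, with 6112 of 12416 above 0. Cyp26a1, counted among the higher members, met the condition for testing on exactly 4 arrays, 3 of them ventral. Its positive difference is thus partly built into its being tested.

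**Figure D1:**
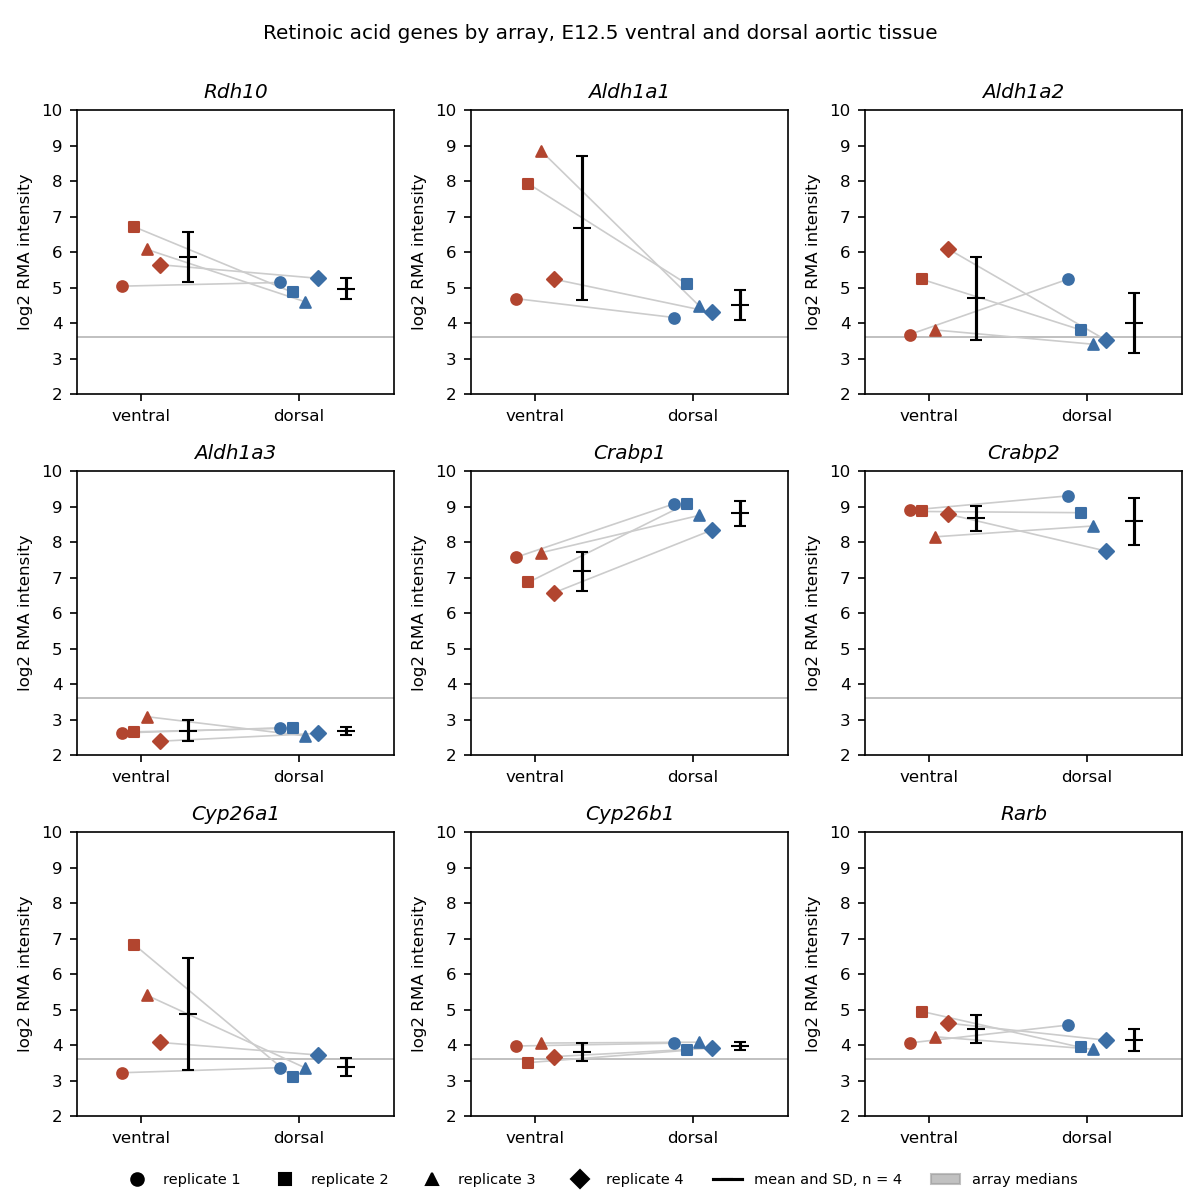
Log2 RMA intensity of each of the 9 genes on the 4 ventral (red, left) and 4 dorsal (blue, right) arrays, with marker shapes for replicate numbers, grey lines joining equal numbers, black bars for mean and SD (n = 4) and a grey band for the array medians of 3.59 to 3.65. Crabp1 is the 1 gene whose ventral arrays all lie below its dorsal arrays, and Aldh1a1 and Cyp26a1 spread widely over the ventral arrays.

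Rdh10, which makes retinal from retinol, lay above the array medians on all 8 arrays. Its log2 levels were 5.04, 6.71, 6.08 and 5.65 in ventral replicates 1 to 4, against 5.15, 4.87, 4.60 and 5.27 in dorsal replicates 1 to 4. Ventral replicates 2, 3 and 4 exceeded every dorsal array, and ventral replicate 1 lay among the dorsal arrays, so the groups overlapped. The difference was 0.90 (SE 0.34, 95% interval 0.10 to 1.70), a 1.86-fold higher mean level in ventral tissue that did not pass the test (adjusted p = 0.549). It was positive in 3 of 4 replicate numbers. In bulk tissue, a larger number of cells that express a gene and more RNA per cell cannot be told apart, here and for every gene below.

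Aldh1a1, a retinal dehydrogenase known from the eye and from adult tissues, had the widest spread of the 9 genes. It reached 4.70, 7.93, 8.86 and 5.24 in ventral replicates 1 to 4, against 4.16, 5.11, 4.49 and 4.31 in dorsal replicates 1 to 4. Ventral replicates 2 and 3 stood far above the rest, ventral replicate 4 lay just above the highest dorsal array, and ventral replicate 1 lay within the dorsal range. Its difference of 2.16 (SE 0.60, 95% interval 0.73 to 3.59) is a 4.48-fold higher mean level in ventral tissue, positive in 4 of 4 replicate numbers, and it did not pass the test (adjusted p = 0.378). Of all genes tested, 7.93% were higher in ventral tissue in 4 of 4 replicate numbers. Over the replicate numbers the difference ran from 0.53 in number 1 to 4.37 in number 3, and without number 3 it was 1.43 (adjusted p = 0.695). Aldh1a1 ranked 14 among the 12416 genes tested by the SD over its ventral arrays (2.02), and 2826 by the SD over its dorsal arrays (0.42).

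Aldh1a7, a close mouse paralog of Aldh1a1 on the same chromosome (19), followed a similar course over the arrays. It stood at 3.94, 5.74, 5.02 and 4.10 in ventral replicates 1 to 4, against 3.80, 3.68, 2.60 and 3.93 in dorsal replicates 1 to 4. All ventral arrays lay above all dorsal arrays, though ventral replicate 1 exceeded dorsal replicate 4 only narrowly, where 2.01% of all genes tested had their ventral arrays all above their dorsal arrays. The difference was 1.20 (SE 0.42) and did not pass the test (adjusted p = 0.519). Whether the probes of these paralogs can tell their transcripts apart was not tested.

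Aldh1a2, the main source of retinoic acid in the early trunk, went both ways between the replicate numbers. It stood at 3.69, 5.23, 3.81 and 6.10 in ventral replicates 1 to 4, against 5.24, 3.82, 3.41 and 3.53 in dorsal replicates 1 to 4. High and low arrays occurred in both tissues: ventral replicates 2 and 4 and dorsal replicate 1 were high, and the other arrays lay near the medians. The difference was 0.71 (SE 0.59, 95% interval -0.69 to 2.11, adjusted p = 0.817), from -1.56 in number 1 to 2.57 in number 4. It was 1.46 without number 1 (adjusted p = 0.359) and 0.09 without number 4 (adjusted p = 0.987). Dorsal replicate 1 also held the highest mean of spinal cord markers, a list of 6 genes. That mean was 2.94 to 3.42 in the ventral arrays, against 4.56 in this array and 3.02 to 3.34 in dorsal replicates 2 to 4. Within that list Sox1, Pax6 and Olig2 were below the medians on every array. In dorsal replicate 1 Sox2 stood at 7.83 and Zic1 at 6.72, while Pax6, Olig2 and Mnx1 had their highest levels in other arrays. Markers of the mesonephros, the embryonic kidney, had a mean over 5 genes of 2.70 to 3.15 in the ventral arrays, against 3.81 in dorsal replicate 1 and 2.79 to 2.98 in dorsal replicates 2 to 4. Pax2, Pax8 and Lhx1 were highest in dorsal replicate 1, while Emx2 stood at 2.74 there and at 5.17 in ventral replicate 1. Cdh16 lay below the medians on all 8 arrays, and none of the 5 genes was tested. A list of 7 markers of mesothelium, the lining of the body cavity, had means of 4.28, 4.80, 4.12 and 4.52 in ventral replicates 1 to 4. In dorsal replicates 1 to 4 the means were 3.56, 4.14, 3.92 and 4.91. Ventral replicates 2 and 4 were the highest ventral arrays for Wt1, Krt7 and Lrrn4, but not for Upk3b, Upk1b, Msln and Krt19. In dorsal replicate 4 Upk3b stood at 7.57. The part of these cell types in the levels of Aldh1a2 was not tested.

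Aldh1a3, the third retinal dehydrogenase of the family, lay below the median on all 8 arrays. Its levels were 2.63, 2.66, 3.09 and 2.40 in ventral replicates 1 to 4, against 2.78, 2.77, 2.55 and 2.62 in dorsal replicates 1 to 4. The groups overlapped and the means differed by 0.02 with no test. At this level the array cannot separate a weak transcript from background.

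Crabp1, a cytoplasmic protein that binds retinoic acid, gave the lowest p of the 9 genes and ranked 12 by p among the 12416 genes tested. It stood at 7.57, 6.87, 7.70 and 6.57 in ventral replicates 1 to 4, against 9.08, 9.08, 8.75 and 8.34 in dorsal replicates 1 to 4. Every ventral array lay below every dorsal array, a separation found in that direction for 2.38% of all genes tested. Its level averaged 7.18 ± 0.54 in ventral and 8.81 ± 0.35 in dorsal tissue (SD, n = 4 each), a difference of -1.63 (SE 0.20, 95% interval -2.11 to -1.15) or a 3.10-fold lower level in ventral tissue. The difference missed the threshold (adjusted p = 0.0831), as it did without the block (adjusted p = 0.151). It ran from -2.21 in number 2 to -1.05 in number 3. With 1 array or 1 replicate number left out it stayed between -1.83 and -1.43, and in a fit restricted to genes with a mean level above the 75th percentile of all rows its adjusted p = 0.0396. Markers of sclerotome and cartilage, the somite tissue beside the notochord, were also lower on average in ventral tissue. The mean of 6 of 6 genes was 4.43 to 4.75 in ventral arrays and 5.75 to 7.16 in dorsal arrays. By gene, Pax1, Pax9, Col2a1 and Acan had their ventral arrays all below their dorsal arrays, as 2.38% of all genes tested did. For Sox9 and Nkx3-2 the groups overlapped. Within the dorsal arrays the orders differed, since dorsal replicate 1 had the lowest sclerotome mean (5.75) and a Crabp1 level of 9.08. The part of sclerotome cells in the Crabp1 levels was not tested.

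Crabp2, the related protein that passes retinoic acid to nuclear receptors, showed no such separation. It stood at 8.90, 8.86, 8.15 and 8.79 in ventral replicates 1 to 4, against 9.30, 8.83, 8.45 and 7.75 in dorsal replicates 1 to 4. The highest and the lowest array were both dorsal. Its difference of 0.09 (SE 0.24, 95% interval -0.48 to 0.67, adjusted p = 0.957) was positive in 2 of 4 replicate numbers and became -0.23 without number 4. Dorsal replicate 4, its lowest array, carried the highest levels of liver and red cell markers. The mean of 5 liver genes was 5.36 in ventral replicate 4 and 3.14 to 3.23 in ventral replicates 1 to 3, against 6.62 in dorsal replicate 4 and 3.25 to 3.39 in dorsal replicates 1 to 3. Their part in the Crabp2 level was not tested.

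**Figure D2:**
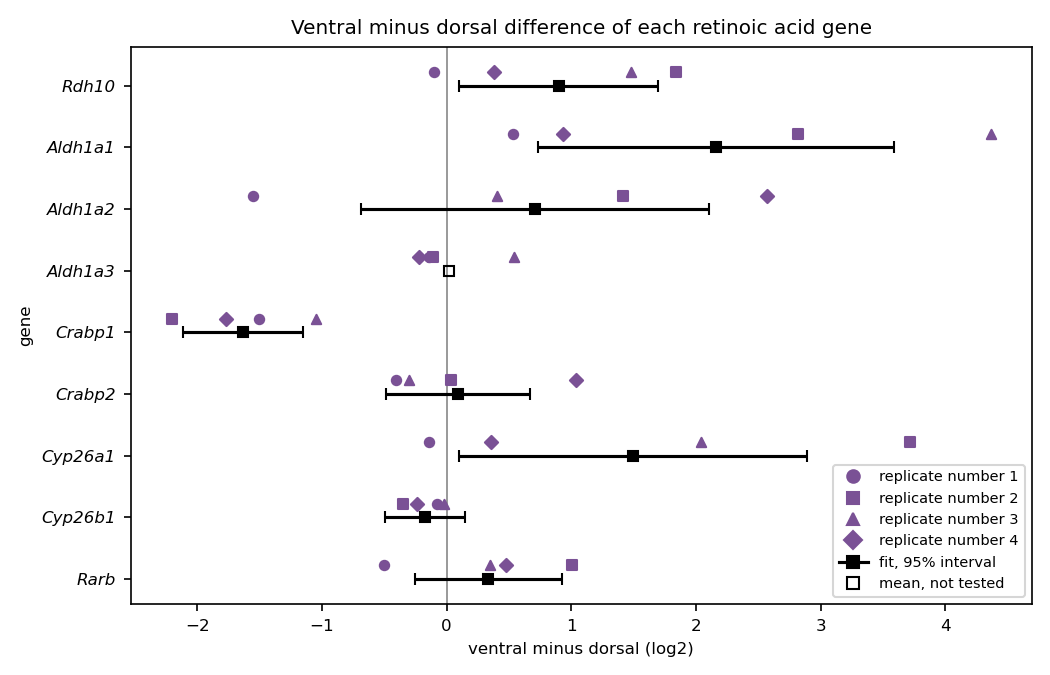
Ventral minus dorsal difference (log2) of each gene, with purple symbols for the 4 replicate numbers, black squares with 95% intervals from the fit for the 8 tested genes, and an open square for Aldh1a3, which was not tested. All 4 replicate numbers lie below 0 for Crabp1 (-2.21 to -1.05) and for Cyp26b1, and all 4 lie above 0 for Aldh1a1 (0.53 to 4.37).

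Cyp26a1, the degrading enzyme induced by retinoic acid itself, was clearly above the array medians only in part of the ventral tissue. It stood at 3.23, 6.83, 5.41 and 4.08 in ventral replicates 1 to 4, against 3.37, 3.11, 3.36 and 3.73 in dorsal replicates 1 to 4. Ventral replicates 2, 3 and 4 exceeded every dorsal array, while ventral replicate 1 lay within the dorsal range and under the array median. The difference was 1.49 (SE 0.59, 95% interval 0.10 to 2.89) and did not pass the test (adjusted p = 0.578). No fold is given, because 3 of 4 dorsal values lay under the array medians. The gene met the condition for testing on exactly 4 arrays, 3 of them ventral, so a positive difference is partly built into its being tested. Without number 2 the difference was 0.75 (adjusted p = 0.858). By the SD over its ventral arrays (1.58) Cyp26a1 ranked 49 among the genes tested, and by the SD over its dorsal arrays (0.25) it ranked 6531.

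Cyp26b1, a second degrading enzyme with its own expression domains in the embryo, lay close to the medians everywhere. It stood at 3.98, 3.51, 4.06 and 3.68 in ventral replicates 1 to 4, against 4.06, 3.86, 4.09 and 3.92 in dorsal replicates 1 to 4. The groups overlapped. Its difference of -0.17 (SE 0.14, 95% interval -0.49 to 0.15, adjusted p = 0.802) was negative in 4 of 4 replicate numbers, as it was for 8.46% of all genes tested.

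Rarb, the receptor gene that retinoic acid switches on, stood at 4.07, 4.95, 4.24 and 4.62 in ventral replicates 1 to 4, against 4.57, 3.94, 3.89 and 4.14 in dorsal replicates 1 to 4. Ventral replicate 2 was the highest of all, and dorsal replicate 1 was the highest dorsal array, as for Aldh1a2. The difference was 0.33 (SE 0.25, 95% interval -0.26 to 0.92, adjusted p = 0.789), positive in 3 of 4 replicate numbers and negative in number 1 (-0.50). It was 0.61 without number 1 and 0.11 without number 2.

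Rarb and Cyp26a1 carry, in their promoters, a sequence of the kind that retinoic acid receptors bind. The promoter windows, from RefSeq on build GRCm38.p6, span 250 bases before to 50 after a transcription start, and 6 of the 9 genes matched the table with 7 windows (Aldh1a3, Rdh10 and Crabp2 had no entry). A search was made on both strands for direct repeats of the half-site AGGTCA, the variant AGTTCA, the variant GGGTCA or the variant GGTTCA, in any combination, with 1, 2 or 5 bases between them. A repeat with a 5-base spacer occurred in Rarb and Cyp26a1 and in no window of Aldh1a1, Aldh1a2, Cyp26b1 or Crabp1. Over all promoter windows of the same length, 32 of 32851 (0.0974%) held one. Spacers of 1 or 2 bases occurred in 0.222% and 0.268% of all windows and in none of the 7. The matches are descriptions of sequence, chosen for display because both genes are known for them. The Rarb repeat lies on the gene's strand from base -53 to base -37, counted from the start, and the Cyp26a1 repeat lies on the opposite strand from base -32 to base -16. Aligned base by base in the direction of the repeat, the pair shares 15 of 17 bases. The elements are written here with the half-sites in capitals and the spacer in lower case.
Rarb element: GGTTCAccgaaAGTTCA
Cyp26a1 element: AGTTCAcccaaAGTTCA

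The whole windows follow, 5′ to 3′ on the strand of the gene, with the repeat in capitals. The Rarb window is chr14:16575427-16575726 on the minus strand, with the repeat at bases 16575513 to 16575529. The Cyp26a1 window is chr19:37697558-37697857 on the plus strand, with the repeat at bases 37697776 to 37697792, where its reverse complement is read.
Rarb: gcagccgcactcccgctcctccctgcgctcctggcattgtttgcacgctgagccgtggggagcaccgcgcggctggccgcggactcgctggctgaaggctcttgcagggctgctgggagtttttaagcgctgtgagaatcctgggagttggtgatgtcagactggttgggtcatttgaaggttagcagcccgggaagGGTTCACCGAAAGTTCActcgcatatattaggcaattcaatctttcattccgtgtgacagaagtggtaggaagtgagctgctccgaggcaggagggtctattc
Cyp26a1: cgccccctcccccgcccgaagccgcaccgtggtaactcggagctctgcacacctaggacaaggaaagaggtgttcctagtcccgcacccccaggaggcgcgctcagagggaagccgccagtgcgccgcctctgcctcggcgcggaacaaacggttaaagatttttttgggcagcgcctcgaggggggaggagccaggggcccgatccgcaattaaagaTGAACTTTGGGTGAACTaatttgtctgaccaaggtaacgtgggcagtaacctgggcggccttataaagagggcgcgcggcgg

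**Figure D3:**
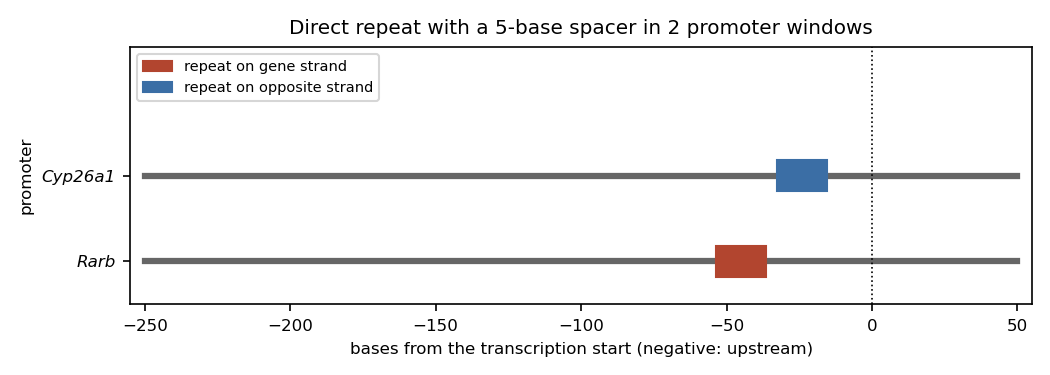
Position of the repeat with a 5-base spacer in the promoter windows of Cyp26a1 and Rarb, with distance from the transcription start in bases on the horizontal axis (negative is upstream). The Cyp26a1 repeat (blue, opposite strand) spans -32 to -16 and the Rarb repeat (red, gene strand) spans -53 to -37.

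The levels of these genes with the repeat did not move to the same extent. In replicate number 2 the ventral array exceeded the dorsal one by 3.72 for Cyp26a1 and by 1.01 for Rarb, and in number 3 by 2.04 and 0.35. In number 4 the differences were 0.35 for Cyp26a1 and 0.48 for Rarb, and in number 1 they were -0.14 and -0.50. Ventral replicate 2 was the highest ventral array for 3 of the 9 genes (Rdh10, Cyp26a1 and Rarb) and ventral replicate 3 for 4 of them (Aldh1a1, Aldh1a3, Cyp26b1 and Crabp1).

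Markers of other cells also differed between the ventral arrays. The mean of 5 smooth muscle genes was 5.13, 7.06, 5.97 and 6.41 in ventral replicates 1 to 4, against 4.77, 5.17, 4.79 and 5.33 in dorsal replicates 1 to 4. Ventral replicate 1, where Rdh10, Aldh1a1, Aldh1a2, Cyp26a1 and Rarb were lowest among the ventral arrays, also had the lowest smooth muscle mean of these arrays. The smooth muscle mean was highest in ventral replicate 2, as were Rdh10, Cyp26a1 and Rarb. Aldh1a1 was highest in ventral replicate 3 and Aldh1a2 in ventral replicate 4. For each of the 5 smooth muscle genes the ventral and dorsal arrays overlapped. Ventral replicate 1 had the highest mean of 5 markers of sympathoadrenal cells (7.74, against 4.48 to 6.34 in the other ventral arrays and 4.68 to 5.22 in the dorsal arrays). Ventral replicates 2 and 3, where Aldh1a1 was high, had sympathoadrenal means of 4.48 and 6.34. The mean of 5 macrophage markers was 5.13 to 5.70 in ventral arrays and 4.64 to 4.99 in dorsal arrays, without overlap. By gene, C1qb and Tyrobp had their ventral arrays all above their dorsal arrays, as 2.01% of all genes tested did. For Cd68, Csf1r and C1qa the groups overlapped. All 5 averaged higher in ventral tissue, as did 6112 of the 12416 genes tested. None passed the test, with the smallest adjusted p = 0.18 for Tyrobp, at a difference of 1.38 (SE 0.22). Steroidogenic markers stayed low, with a mean of 3.11 to 3.27 over 5 genes in ventral arrays and 3.08 to 3.16 in dorsal arrays, and Cyp11a1, Hsd3b1 and Cyp17a1 lay below the median on all 8 arrays. The part of each cell type in the levels of the 9 genes was not tested.

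**Figure D4:**
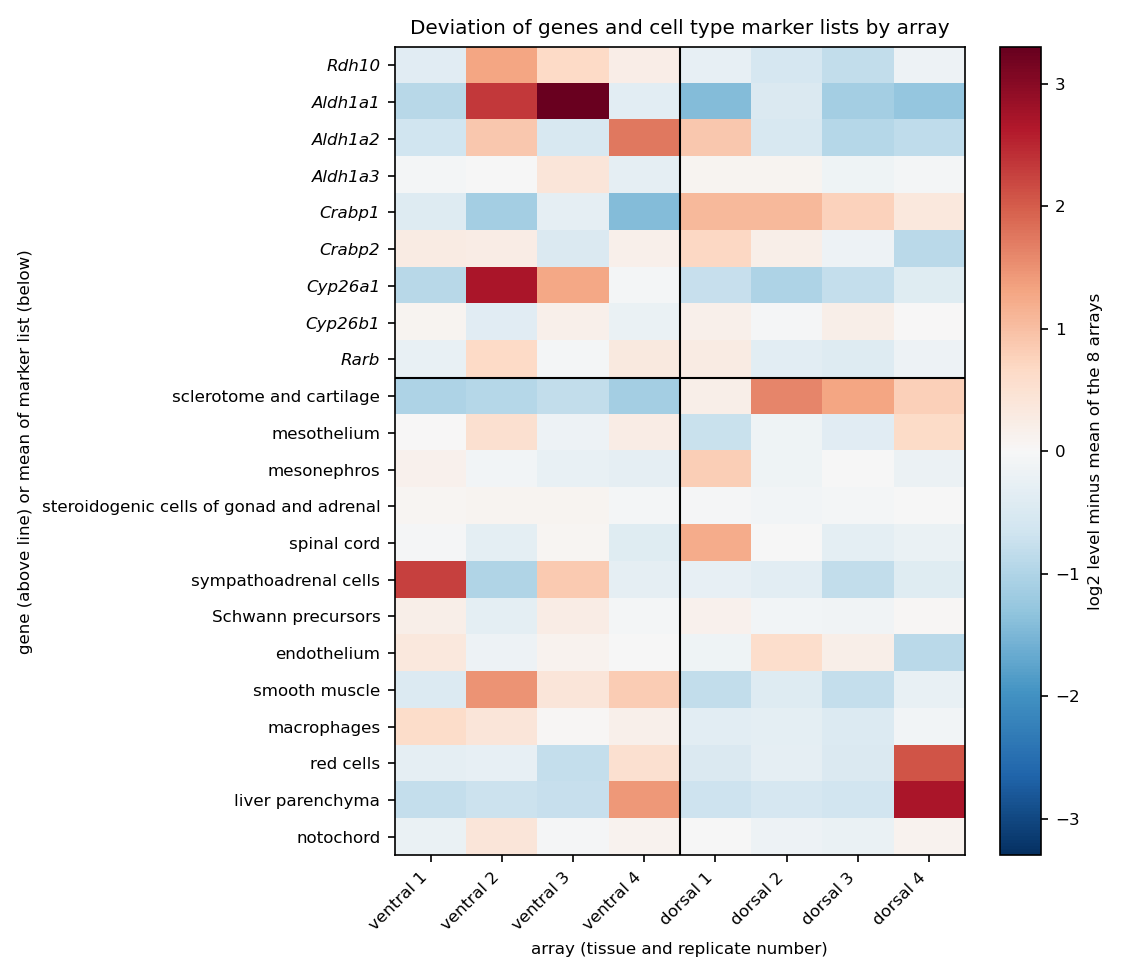
Deviation of each gene (above the line) and of the mean of each cell type marker list (below it) from its own mean over the 8 arrays, in log2 units, with ventral arrays on the left and dorsal arrays on the right. Aldh1a1 deviates by 3.26 in ventral replicate 3 and by 2.33 in ventral replicate 2, and the liver list deviates by 1.43 in ventral replicate 4 and by 2.69 in dorsal replicate 4.

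For each tested gene, the genes with the most similar course over the 8 arrays were found by Pearson correlation among 11125 named candidates. These values describe arrays that share tissues, embryos and amplification, and the highest of so many candidates is high by selection. For Rdh10 the nearest were Cryaa (r = 0.96), Aldh1a7 (r = 0.96) and Cyp26a1 (r = 0.96). For Cyp26a1 they were Zfp516, Taf7 and Zfp653 (r = 0.97, 0.97 and 0.96). For Aldh1a1 they were Ephb6, Fbln5 and Lancl1 (r = 0.97, 0.96 and 0.96). Of these, Fbln5, a protein of elastic fibres, differed by 1.46 (adjusted p = 0.377). For Crabp1 they were Rab28, Ice1 and Nhs (r = 0.98, 0.98 and 0.94), with differences of -0.80, -0.41 and -0.89. The nearest genes were Syngr3, Strn and Mrps27 for Aldh1a2, R3hdm1, Mpi and Wapl for Cyp26b1, Prpf18, Map4k5 and Sos2 for Crabp2, and Atp5g3, Camk2a and Cyrib for Rarb, with r from 0.93 to 0.97.

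The rest of the pathway was covered by 4 lists with 61 further genes, of which 57 were in the table and 33 were tested. Of these 33, 0 passed an adjusted p under 0.05, and 4 were higher and 1 lower in ventral tissue at an unadjusted p under 0.05, beside 4.08% and 4.18% of all genes tested. Their median difference was 0.06, with 18 above 0 and 15 below. All genes tested had a median of -0.0039, with 6112 of 12416 above 0.

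Genes of retinol uptake and transport gave 3 tested members of 9. Stra6, the receptor that takes up retinol from its carrier, stood at 5.82, 5.63, 5.83 and 5.88 in ventral replicates 1 to 4, against 5.14, 5.38, 5.66 and 5.27 in dorsal replicates 1 to 4. Its difference was 0.43 (SE 0.19, adjusted p = 0.605), and only dorsal replicate 3 reached the ventral range. Stra6l, a related retinol transporter, differed by -0.41 (SE 0.24, adjusted p = 0.736). Rbp4, the retinol carrier of blood made chiefly by liver, had 4.29 to 5.14 in ventral and 4.60 to 6.11 in dorsal arrays, highest in the replicate 4 of each tissue, where the liver markers were also highest. Its difference was -0.29 (SE 0.23, adjusted p = 0.797).

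Among 22 other enzymes of retinol and retinal, 8 were tested, and Aldh1a7, given above, had the smallest p. Dhrs3, which turns retinal back into retinol, had levels of 6.35, 5.82, 5.51 and 6.26 in ventral replicates 1 to 4, against 5.29, 6.60, 6.71 and 6.68 in dorsal replicates 1 to 4. The ventral array was the higher one in replicate number 1 and the lower one in the other 3 numbers, and the difference was -0.33 (SE 0.36, adjusted p = 0.87). The third degrading enzyme, Cyp26c1, passed the median on 1 array only, ventral replicate 2, with 3.88 there, 3.19 to 3.37 in the other ventral arrays and 3.10 to 3.25 in dorsal arrays. It was not tested. The remaining tested enzymes of that list (Adh5, Dhrs4, Rdh5, Rdh11, Rdh13 and Rdh14) had adjusted p-values from 0.671 to 0.955.

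Of 15 receptors and cofactors, 12 were tested. The orphan receptors Nr2f1 and Nr2f2, which can bind retinoic acid response elements, had the smallest p of that list. Nr2f1 stood at 5.76, 5.63, 6.05 and 5.95 in ventral replicates 1 to 4, against 5.62, 5.04, 4.62 and 4.72 in dorsal replicates 1 to 4. The groups did not overlap, as for 2.01% of all genes tested in that direction, but ventral replicate 2 exceeded dorsal replicate 1 only narrowly. The difference was 0.85 (SE 0.26, adjusted p = 0.435). Nr2f2 stood at 6.19, 7.40, 7.49 and 7.69 in ventral replicates 1 to 4, against 6.79, 5.74, 5.80 and 5.59 in dorsal replicates 1 to 4, with a difference of 1.22 (SE 0.43, adjusted p = 0.519) that was positive in 3 of 4 replicate numbers. The receptors Rara, Rxra and Rarg did not pass the test. Rara differed by 0.06 (SE 0.17, 95% interval -0.35 to 0.46), Rxra by 0.05 (SE 0.18) and Rarg by -0.33 (SE 0.20, adjusted p = 0.736). The Rxra interval ran from -0.38 to 0.48 and that of Rarg from -0.79 to 0.13.

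Of 19 genes known to respond to retinoic acid, 13 were tested, with a median difference of 0.07. Meis2, a homeobox partner of Hox proteins, stood at 5.96, 6.61, 7.19 and 7.15 in ventral replicates 1 to 4, against 6.58, 5.58, 5.30 and 5.62 in dorsal replicates 1 to 4. Ventral replicates 2, 3 and 4 exceeded every dorsal array, by a difference of 0.96 over all arrays (SE 0.39, adjusted p = 0.594). Tshz1, a zinc finger factor of the trunk, stood at 6.13, 5.74, 5.17 and 5.01 in ventral replicates 1 to 4, against 6.53, 6.03, 5.89 and 5.40 in dorsal replicates 1 to 4. The groups overlapped, and its difference of -0.45 (SE 0.18, adjusted p = 0.574) was negative in 4 of 4 replicate numbers. The smallest adjusted p among the 4 lists was 0.435.

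**Figure D5:**
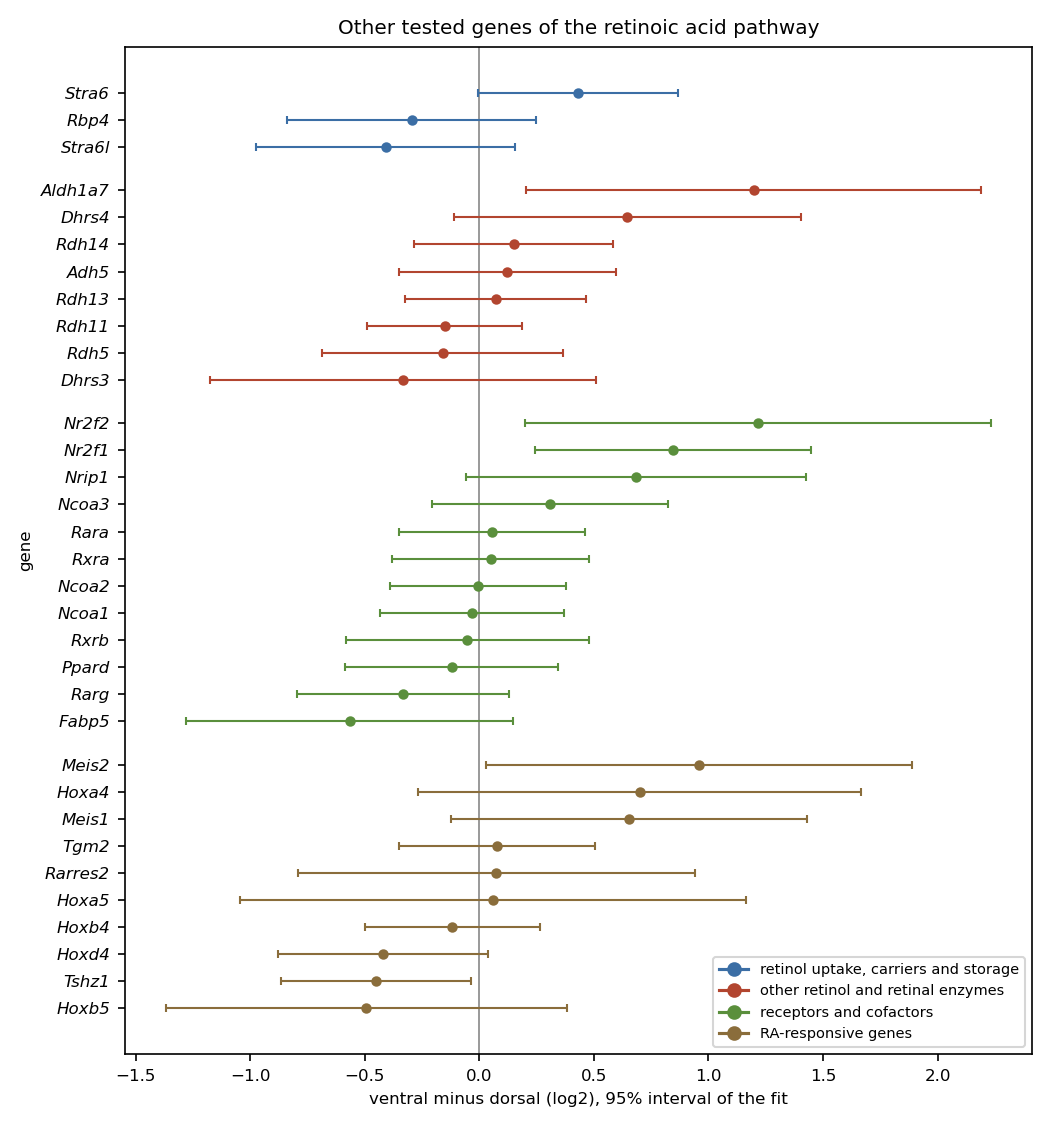
Ventral minus dorsal difference (log2) of the 33 other tested pathway genes, with 95% intervals from the fit, coloured by list (a gene on more than 1 list is drawn in the first). Nr2f2 (1.22), Aldh1a7 (1.20) and Meis2 (0.96) lie furthest to the right, and Fabp5 (-0.57) furthest to the left.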

How the data were processed

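Each tissue was hybridised to 4 Affymetrix mouse Gene 2.0 ST arrays of 1 colour. Per the labels' protocols, picogram amounts of total RNA were amplified (Ovation Pico, single primer isothermal amplification) and biotin labelled. The deposited values are log2 intensities, made with Affymetrix Expression Console and RMA per the submitters' processing notes, and versions, array definition and build are not given in the sources used here. RMA equalises the arrays, so each difference is read against the rest of the array. Amplification from picograms can widen the spread between arrays, mostly for weak genes.

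Rows carry Entrez numbers, and of 25429 rows the platform table named 24675 with 1 symbol, 0 with several and 754 with none (not used). The 12416 genes that exceeded the array median, taken over all rows, on 4 or more arrays were fitted with limma 3.58.1 in R 4.3.3 (lmFit, eBayes with trend and robust estimation), with replicate number as a fixed block, a two-sided moderated test and Benjamini-Hochberg adjustment over all genes tested. The code was tested on simulated data. The number of arrays limits precision. Over tested genes, arrays correlated at 0.907 to 0.948 within ventral tissue, 0.907 to 0.957 within dorsal tissue and 0.907 to 0.936 between them.

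The block was kept because both tissues come from the same embryos and share numbers. Deviations from the tissue means correlated at 0.107, 0.029, 0.022 and 0.120 for equal numbers and -0.126 to 0.102 for unequal ones, so the data do not show that every number pairs the arrays, and the p-values reflect only how these samples vary, which may be technical. No batch is labelled. Members and gene lists were chosen with earlier results of these data known. Genes named are the 9 members, the pathway genes of smallest p per list and direction, 8 fixed pathway genes, and the 3 most correlated genes of each tested member, without predicted genes and small RNAs. Fabp5, Adh1, Ttr, Bco1 and the remaining retinol enzymes were added after their values were seen. Other fits changed the block, filter, variance model, array weights and scaling, or left out arrays.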

Additional observations from a re-analysis of the deposited data

Results flagged for a closer look

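Crabp2 stood at 8.15 in ventral replicate 3, and at 8.79 to 8.90 in the other 3 ventral arrays. Its gap to the nearest array was 0.85 of the range of the 4 arrays, above Dixon's 95% critical value for 4 samples. It was the 1 such case among 18 groups of 4 arrays checked (9 genes in both tissues), and chance alone gives about 1 in 20. Without ventral replicate 3 and without a block, the difference of Crabp2 was 0.27 (adjusted p = 0.907), and with the block and without number 3 it was 0.22 (adjusted p = 0.944).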

How the results depend on the processing

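With amplified RNA on 4 arrays per tissue, the number of genes called varied with the fit. It was 0 with the replicate number as a block, 4 with no replicate block and 4 with a random replicate block. When tested genes needed a mean above the 75th percentile of all rows, it was 10. The part of amplification and of the number of arrays in these counts was not tested. Leaving out replicates gave 0 to 20 genes: 9 without number 1, and with no block 20 without ventral replicate 1, 8 without dorsal replicate 1 and 9 without dorsal replicate 4. No member was among the calls of any of these fits, except that Crabp1 passed with the stricter filter, at -1.63 (adjusted p = 0.0396), where fewer genes were tested. Over its 20 alternatives the adjusted p of Crabp1 ran from 0.0396 to 0.417. The difference of Crabp2 changed sign without replicate 4 (-0.23) and, with no block, without dorsal replicate 4 (-0.19). With a block it ranged from -0.23 to 0.26 over the left-out numbers, and with no block from -0.19 to 0.33 over the left-out arrays. The other tested members (Aldh1a1, Aldh1a2, Rdh10, Cyp26a1, Cyp26b1 and Rarb) kept their direction and did not pass in any fit that gave them a value. With replicates left out, Aldh1a1 ranged from 1.43 to 2.82, Rdh10 from 0.58 to 1.23, Cyp26a1 from 0.75 to 2.05, Aldh1a2 from 0.09 to 1.46, Cyp26b1 from -0.26 to -0.07 and Rarb from 0.11 to 0.61. The cause of these shifts was not tested. Under the stricter filter Aldh1a2, Cyp26a1, Cyp26b1 and Rarb were not tested.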

Other observations

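Adh1, an alcohol dehydrogenase that can oxidise retinol, was not tested because it passed the median on 2 arrays only, both ventral. It stood at 3.06, 3.56, 4.89 and 4.39 in ventral replicates 1 to 4, against 3.40, 3.34, 2.88 and 3.09 in dorsal replicates 1 to 4. Ttr, the liver protein that carries Rbp4 in blood, was at 5.95 in ventral replicate 4 and 3.23 to 3.40 in ventral replicates 1 to 3, against 7.65 in dorsal replicate 4 and 3.05 to 3.37 in dorsal replicates 1 to 3.

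Of the 46 pathway genes beyond the 9 with a promoter window, 0 were listed with a repeat of a 5-base spacer. Matches on chromosome 18, where Ttr, Cdx1 and Tshz1 lie, were left out, so the count does not cover those genes. Bco1, which cleaves beta-carotene into retinal, held the 1 listed repeat with a 1-base spacer outside chromosome 18. Its levels of 2.84 to 3.29 in ventral and 2.80 to 3.28 in dorsal arrays lay below the medians on all 8 arrays.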
